A study of Arabidopsis thaliana with 36 samples.

Results

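The WRKY transcription factors of Arabidopsis thaliana are described here across an experiment on bacterial flagellin and sugar. The family was taken as a fixed list of 45 WRKY loci out of the 32833 loci counted, and a locus was to be kept if it had at least 10 counts in at least 3 libraries. All 45 loci met that rule, as did 21949 of the 32833 loci. These 45 are a part of the WRKY family, chosen with earlier results of these data known, and 27 further WRKY loci lie outside the list. Below, the family and its members mean the listed loci. The list holds loci of every WRKY subfamily, numbered by the usual grouping I, IIa, IIb, IIc, IId, IIe and III, and the locus names in the RefSeq annotation matched the WRKY names for 44 of them. The other was WRKY1, which RefSeq calls ZAP1.

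Whole seedlings, 7 days old, were profiled in 36 libraries that form 12 groups of 3, made in 3 independent trials. Each p-value rests on the spread between libraries within groups, estimated over all groups fitted together. No term for the trial was fitted, except in the alternative with the replicate number as a block. The plants were grown at 22 °C with 16 h of light on agar containing 25 mM sucrose and were moved to liquid medium at 6 days. In the flg22 experiment that medium held 25 mM sucrose, and 3 genotypes were sampled 2, 10 and 24 h after 1 µM flg22, a peptide of bacterial flagellin. These were stp1/4/13, a mutant of the hexose transporter genes STP1, STP4 and STP13; Col, the wild type; and fls2, a mutant of the flagellin receptor kinase FLS2. In the other experiment Col seedlings received no flg22 and were moved to liquid medium without sucrose. By their titles they were then given 1 mM 2-deoxy-d-glucose, a glucose analogue (2DG_1mM), 25 mM sucrose (Suc_25mM) or no sucrose (Suc_0mM), and were sampled at 24 h. Every flg22 group received flg22, so fls2 is the background for the peptide, and a difference of Col from fls2 or of stp1/4/13 from Col includes any effect of the genotype without flg22. Which alleles were used, and how many plants were pooled for a library, is not given in the sources used here.

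WRKY proteins are plant transcription factors that share a DNA-binding domain named after its WRKY amino acid signature, and they bind a short DNA element called the W box. Many of their genes are switched on when cells perceive microbial molecules, through receptor kinases, calcium-dependent protein kinases and mitogen-activated protein kinase (MAPK) cascades, and others act in senescence, in nutrient supply, or under heat and drought. Some members promote defence and others repress it, and many WRKY genes carry W boxes in their own promoters.

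The promoters of 7 members are shown as examples, not as a sample of the family. The first 6 hold W boxes and belong to genes that rose in Col over fls2 at 2 h. The last belongs to WRKY38, which had no W box in this window and was at 0 in Suc_0mM but not with 2DG. Other members with large differences below, WRKY8, WRKY22, WRKY40, WRKY46, WRKY50 and WRKY70, also had no W box in this window and are not shown. Each is the 250 bases before the gene start in RefSeq's TAIR10.1 assembly, written 5′ to 3′ on the gene's strand. Capitals mark W boxes, searched as TTGACC or TTGACT on either strand, so that GGTCAA and AGTCAA are the same element read from the other strand.
WRKY30 (AT5G24110), chr5:8154711-8154960, minus strand: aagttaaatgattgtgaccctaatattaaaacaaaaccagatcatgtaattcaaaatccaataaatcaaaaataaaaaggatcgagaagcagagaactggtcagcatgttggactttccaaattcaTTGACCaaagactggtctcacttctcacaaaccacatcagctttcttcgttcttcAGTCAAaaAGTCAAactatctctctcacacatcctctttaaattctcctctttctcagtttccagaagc
WRKY33 (AT2G38470), chr2:16107985-16108234, plus strand: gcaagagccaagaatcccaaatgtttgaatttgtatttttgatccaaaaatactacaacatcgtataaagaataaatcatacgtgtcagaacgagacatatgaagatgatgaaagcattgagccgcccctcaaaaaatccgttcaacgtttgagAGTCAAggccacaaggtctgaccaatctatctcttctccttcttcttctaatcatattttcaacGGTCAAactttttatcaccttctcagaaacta
WRKY53 (AT4G23810), chr4:12393983-12394232, minus strand: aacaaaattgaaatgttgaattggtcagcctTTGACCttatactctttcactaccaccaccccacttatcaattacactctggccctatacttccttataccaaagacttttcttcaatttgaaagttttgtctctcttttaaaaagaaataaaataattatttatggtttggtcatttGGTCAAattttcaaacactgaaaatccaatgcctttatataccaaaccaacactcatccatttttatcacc
WRKY41 (AT4G11070), chr4:6758848-6759097, plus strand: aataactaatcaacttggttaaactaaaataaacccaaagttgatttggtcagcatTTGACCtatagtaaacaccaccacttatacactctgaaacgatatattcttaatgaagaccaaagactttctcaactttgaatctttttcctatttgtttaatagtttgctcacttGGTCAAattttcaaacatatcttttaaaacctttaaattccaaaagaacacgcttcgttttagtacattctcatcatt
WRKY29 (AT4G23550), chr4:12291382-12291631, plus strand: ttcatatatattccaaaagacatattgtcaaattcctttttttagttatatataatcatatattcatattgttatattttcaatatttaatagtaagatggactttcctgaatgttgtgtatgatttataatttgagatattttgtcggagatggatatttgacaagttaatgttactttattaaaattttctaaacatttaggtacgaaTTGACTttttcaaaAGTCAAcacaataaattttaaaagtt
WRKY62 (AT5G01900), chr5:352096-352345, minus strand: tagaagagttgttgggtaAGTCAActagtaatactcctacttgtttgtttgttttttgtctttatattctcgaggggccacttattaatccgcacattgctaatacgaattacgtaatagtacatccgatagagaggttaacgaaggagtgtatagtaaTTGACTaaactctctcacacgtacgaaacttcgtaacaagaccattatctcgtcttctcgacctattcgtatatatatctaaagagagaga
WRKY38 (AT5G22570), chr5:7496991-7497240, minus strand: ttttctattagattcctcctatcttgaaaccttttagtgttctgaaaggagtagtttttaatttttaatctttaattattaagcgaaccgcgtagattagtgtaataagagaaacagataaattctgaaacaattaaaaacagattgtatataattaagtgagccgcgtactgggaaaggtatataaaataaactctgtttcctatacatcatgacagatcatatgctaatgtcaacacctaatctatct

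WRKY30 was the member with 3 W boxes, at -124, -69 and -61 from its gene start, a number that 1.06% of all 27437 protein-coding genes reached in the same window. Across the family, 17 of 45 promoters (37.8%) held at least 1 W box and 9 (20%) held at least 2, against 28.4% and 6.18% of all protein-coding genes. WRKY53 and WRKY41, both of subfamily III, shared a run of 19 bases, ttGGTCAAattttcaaaca, that includes their proximal W box. It was the longest run shared by any of the 990 pairs of member promoters, for which the median was 9 bases. A match of letters is a description of the window and does not show that a protein binds there.

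Total counts per library ranged from 15994904 to 20111338 at 2 and 24 h, from 9462067 to 11309472 at 10 h and from 8054500 to 12881741 in the sugar experiment, which limits what can be said of members with few counts such as WRKY41 and WRKY42. FLS2 averaged 21.8 to 47.1 counts per 1000000 (CPM) in Col over the 3 times, against 0.141 to 0.165 CPM in fls2. STP1, STP4 and STP13 averaged 5.72 to 11.7, 50.1 to 86.6 and 7.85 to 14.9 CPM in stp1/4/13, against 168 to 321, 190 to 376 and 99.9 to 314 CPM in Col. The seedlings hold leaf and root cells, and in bulk RNA fewer cells of a type and less RNA per cell cannot be told apart. The summed level of 5 leaf marker genes was 4890 to 8220 CPM in Col libraries at 2 h, against 12600 to 17900 CPM in fls2, and all 5 markers were called lower. The summed level of 5 root markers was 2.8 to 7.02 CPM in Col at 10 h, against 96.6 to 153 CPM in fls2, and all 5 were called lower at 10 h and again at 24 h, but none at 2 h. The part of these shifts in the WRKY results was not tested. The counts come from tags near the 3′ ends of transcripts, and 10 members (WRKY1, WRKY2, WRKY4, WRKY29, WRKY33, WRKY40, WRKY41, WRKY53, WRKY61 and WRKY69) overlap an antisense gene in the annotation. The libraries mark strand, but the strand setting of the counting is not given in the sources used here, so the values of these 10 may hold antisense reads.

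After flg22 most of the listed members were higher in Col than in fls2. In Col over fls2, 34 of 45 members rose at 2 h, 35 of 44 tested at 10 h and 31 of 45 at 24 h, and no member fell at any time. "Rose" and "fell" here mean a Benjamini-Hochberg adjusted p below 0.05 over all genes tested (edgeR quasi-likelihood test, 3 libraries per group). Among all genes tested, 18.7% were called higher at 2 h, 24.9% at 10 h and 11% at 24 h, and 16.1%, 26.4% and 7.59% were called lower. The members' median log2 fold change was 2.07 at 2 h, 2.33 at 10 h and 1.37 at 24 h, while the median over all genes was -0.02, -0.07 and 0.01. Altogether 38 members rose at 1 or more times and 28 rose at all 3. Leaving out 1 library gave 30 to 32 members at 2 h and 34 or 35 at 10 h. At 24 h it gave 20 to 30, with 20 when fls2 library 2 or 3 was left out, and 18 when the fit held only the Col and fls2 libraries.

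**Figure D1:**
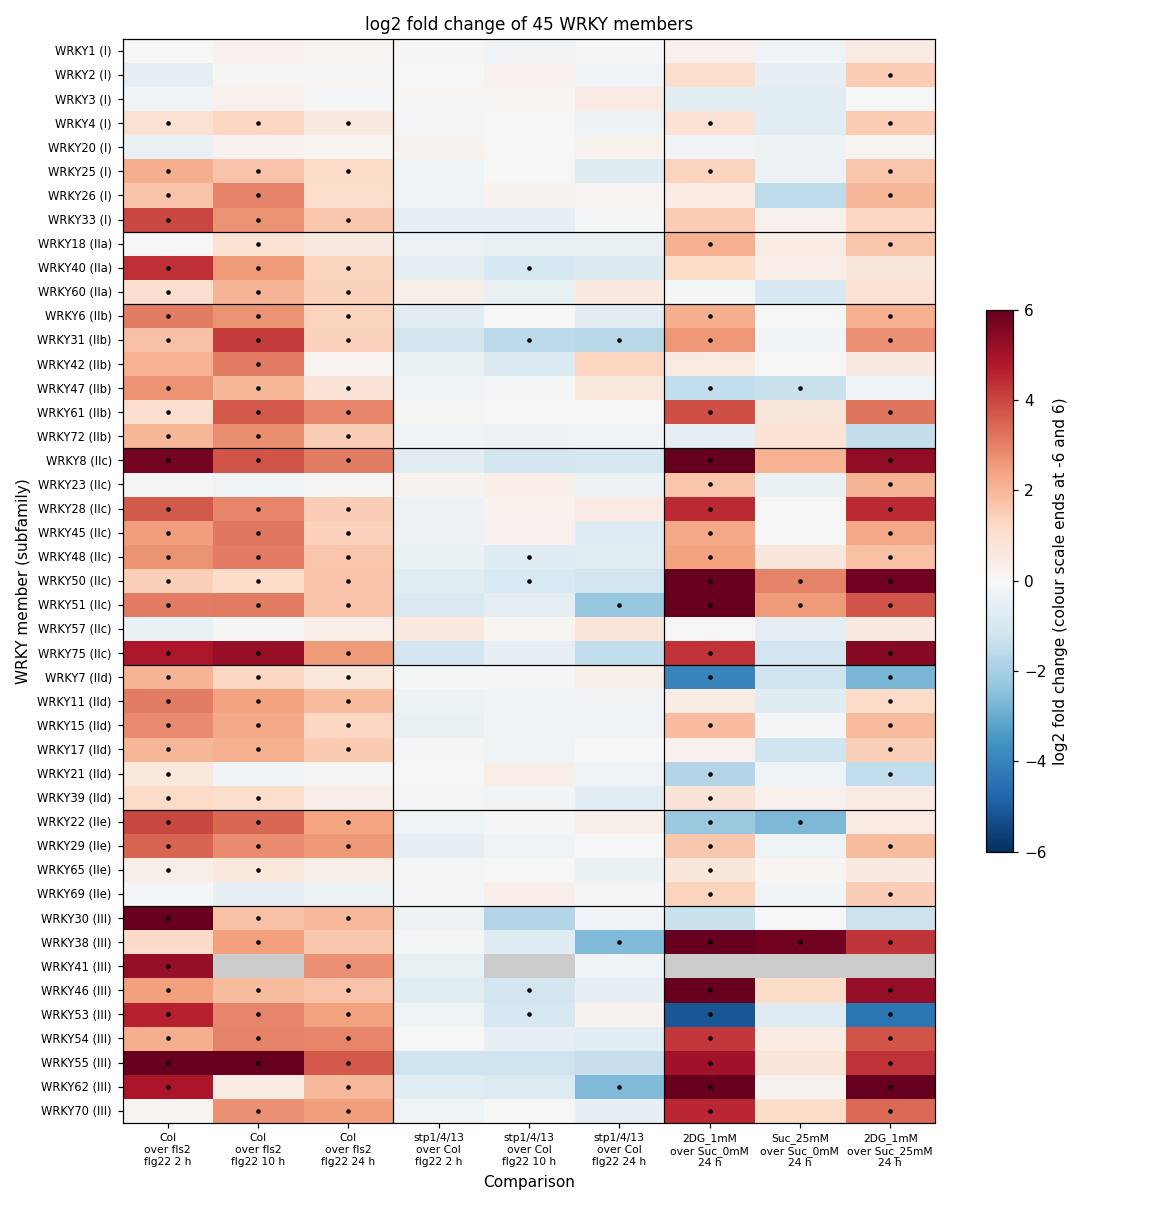
Log2 fold changes of the 45 WRKY members, in rows by subfamily, for Col over fls2 and stp1/4/13 over Col at 2, 10 and 24 h after flg22, and for 2DG_1mM over Suc_0mM, Suc_25mM over Suc_0mM and 2DG_1mM over Suc_25mM. Red is higher and blue lower in the group named first, a dot marks an edgeR adjusted p below 0.05, grey marks a member that was not tested, and colours are capped at 6 log2 units. The Col over fls2 columns hold 34, 35 and 31 dots, all on red, and the stp1/4/13 over Col columns 0, 6 and 4, all on blue.

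WRKY33 is the best known member of subfamily I, a substrate of the MAPKs MPK3 and MPK6 that turns on synthesis of the antimicrobial compound camalexin. At 2 h WRKY33 had 114, 84.7 and 122 CPM in stp1/4/13 and 189, 127 and 134 CPM in Col, against 13.2, 2.32 and 12.6 CPM in fls2. At 10 h WRKY33 had 59.7, 69.4 and 61.1 CPM in stp1/4/13 and 96.4, 83.8 and 83.6 CPM in Col, against 8.86, 11.5 and 20.3 CPM in fls2. At 24 h WRKY33 had 48.8, 66.4 and 66.9 CPM in stp1/4/13 and 65.1, 68 and 58.5 CPM in Col, against 25.7, 16.3 and 20 CPM in fls2. At each time every Col and every stp1/4/13 library lay above every fls2 library. The log2 fold change of Col over fls2 was 4.00 ± 0.42 (SE), 2.69 ± 0.23 and 1.63 ± 0.38 over the 3 times (edgeR adjusted p = 7.1e-07, 3.9e-08 and 0.0057). Of the other subfamily I members, WRKY25 and WRKY26, which act in heat tolerance, and WRKY4, which acts with WRKY3 against necrotrophic fungi, also rose. WRKY25 rose by 2.17, 1.73 and 1.1 log2 units over the 3 times. WRKY26 rose by 1.73 at 2 h and 2.97 at 10 h, but its 2 h call was lost without fls2 library 2 (edgeR adjusted p = 0.061). At 24 h WRKY26 was not called (1.06), but was with the replicate number as a block (edgeR adjusted p = 0.021). The 4 others, WRKY1, WRKY2, WRKY3 and WRKY20, were not called in Col over fls2 at any time, with values between -0.55 and 0.26. A fit of the Col and fls2 libraries of 2 h alone called WRKY2, an abscisic acid and zygote regulator, lower (-0.55, edgeR adjusted p = 0.035).

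WRKY22 (AT4G01250) and WRKY29, of subfamily IIe, are the classical reporters downstream of the flg22 MAPK cascade. At 2 h WRKY22 had 131, 110 and 90.5 CPM in stp1/4/13 and 146, 150 and 106 CPM in Col, against 9.91, 6.02 and 8.71 CPM in fls2. At 10 h WRKY22 had 69.3, 78.7 and 89.2 CPM in stp1/4/13 and 85.4, 85.7 and 79 CPM in Col, against 5.43, 7.66 and 9.71 CPM in fls2. At 24 h WRKY22 had 74.2, 81.1 and 71.7 CPM in stp1/4/13 and 78.1, 53.1 and 50.8 CPM in Col, against 15, 14.5 and 5.68 CPM in fls2. The stp1/4/13 and Col ranges overlapped at all 3 times and both stood clear of fls2. The log2 fold change of Col over fls2 was 4.03 ± 0.32 at 2 h, 3.45 ± 0.19 at 10 h and 2.37 ± 0.30 at 24 h (edgeR adjusted p = 2.3e-08, 2.9e-10 and 2e-05).
WRKY29 behaved alike at lower counts. It had 68.5, 34.9 and 52.5 CPM in stp1/4/13 and 103, 56.7 and 58 CPM in Col at 2 h, against 6.19, 5.97 and 7.24 CPM in fls2. At 10 h WRKY29 had 38.3, 39.2 and 45.8 CPM in stp1/4/13 and 41, 51 and 54.1 CPM in Col, against 6.24, 8.83 and 5.13 CPM in fls2. No fls2 library came near the others. At 24 h WRKY29 had 48.1, 53.7 and 20.3 CPM in stp1/4/13 and 36.2, 38.6 and 45.2 CPM in Col, against 7.15, 5.59 and 6.74 CPM in fls2. Its log2 fold changes of Col over fls2 were 3.48 ± 0.34, 2.86 ± 0.20 and 2.62 ± 0.33. The other subfamily members were close to level: WRKY65 rose by 0.37 ± 0.14 at 2 h (edgeR adjusted p = 0.042, and 0.054 to 0.22 without Col library 2 or 3 or any fls2 library) and 0.62 ± 0.17 at 10 h, and WRKY69 was not called.

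The 3 members of subfamily IIa, WRKY18 (AT4G31800), WRKY40 (AT1G80840) and WRKY60 (AT2G25000), form complexes with each other and act together as repressors of basal defence. WRKY40 had 66.4, 54 and 77.3 CPM in stp1/4/13 and 96, 94.3 and 94.6 CPM in Col at 2 h, against 4.31, 1.1 and 7.95 CPM in fls2. At 10 h WRKY40 had 15.8, 19 and 13 CPM in stp1/4/13 and 34.1, 34.3 and 29.7 CPM in Col, against 3.32, 5.22 and 8.12 CPM in fls2. At both times all stp1/4/13 libraries lay between the Col and the fls2 libraries. At 24 h WRKY40 had 18.6, 17.3 and 17.4 CPM in stp1/4/13 and 33.5, 31.5 and 32 CPM in Col, against 22.4, 8.73 and 7.91 CPM in fls2, where fls2 library 1 exceeded the stp1/4/13 libraries. The log2 fold change of Col over fls2 was 4.40 ± 0.47 at 2 h, 2.55 ± 0.26 at 10 h and 1.32 ± 0.42 at 24 h, where it was lost without Col library 1 or 2 or fls2 library 2 or 3 (edgeR adjusted p = 0.035, and 0.078 to 0.15 without those). The partners moved less. WRKY60 rose by 0.96 ± 0.32, 2.02 ± 0.23 and 1.36 ± 0.32 log2 units, and its 2 h call was lost without Col library 2 or 3 or fls2 library 2 or 3 (edgeR adjusted p = 0.024, and 0.052 to 0.14 without those). WRKY18 was level at 2 h (-0.01 ± 0.22, edgeR adjusted p = 0.98), rose by 0.90 ± 0.15 at 10 h and was not called at 24 h (0.55 ± 0.22, edgeR adjusted p = 0.094).

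Subfamily III had the largest median difference at 2 h, 4.67 log2 units over 9 members, of which 7 rose. WRKY30 had 101, 58.7 and 29.2 CPM in stp1/4/13 and 81.5, 101 and 51 CPM in Col at 2 h, against 0.377, 0.579 and 0.405 CPM in fls2. At 10 h WRKY30 had 0.802, 1.6 and 0.327 CPM in stp1/4/13 and 2.9, 3.37 and 3.09 CPM in Col, against 0.403, 0.213 and 2.05 CPM in fls2. At 24 h WRKY30 had 1.67, 3.16 and 6.49 CPM in stp1/4/13 and 1.34, 3.38 and 7.82 CPM in Col, against 1.87, 0.868 and 0.582 CPM in fls2. The groups were far apart at 2 h and overlapped at 24 h, and the 10 h and 24 h calls did not survive leaving out single libraries (edgeR adjusted p = 0.048 at 10 h, and 0.088 to 0.15 without any 1 of 5 libraries, while without fls2 library 3 the 10 h difference was 3.29 against 1.77 log2 units with it; 0.039 at 24 h, and up to 0.24 without Col library 3).

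WRKY53, a regulator of leaf senescence, had 54.2, 31.2 and 62.5 CPM in stp1/4/13 and 52.2, 46.6 and 79.1 CPM in Col at 2 h, against 1.83, 1.62 and 3.49 CPM in fls2. At 10 h WRKY53 had 11.2, 13 and 14.8 CPM in stp1/4/13 and 24.1, 23.7 and 29 CPM in Col, against 2.82, 3.09 and 4.11 CPM in fls2. At 24 h WRKY53 had 20.4, 21.2 and 18.9 CPM in stp1/4/13 and 12, 15.1 and 25.3 CPM in Col, against 2.61, 3.74 and 3.54 CPM in fls2. No fls2 library reached any other at any of the times, and the log2 fold changes of Col over fls2 were 4.67 ± 0.36, 2.93 ± 0.23 and 2.40 ± 0.34. WRKY41, a relative of WRKY53 that acts in seed dormancy, had 2.07, 0.626 and 0.786 CPM in stp1/4/13 and 1.14, 2 and 1.59 CPM in Col at 2 h, against 0.108, 0 and 0 CPM in fls2. It rose by 5.21 ± 1.01 log2 units in Col over fls2 at 2 h (edgeR adjusted p = 0.00054) and was too low to be tested at 10 h. Without fls2 library 1, which held its only fls2 counts at 2 h, the fitted value was 7.84. That value is set against a group at 0 and is not a bound. WRKY46, which adds to basal resistance together with WRKY53 and WRKY70, rose by 2.46, 1.92 and 1.71 log2 units.

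WRKY70 (AT3G56400) and WRKY54 (AT2G40750) are a pair that balances salicylic acid against jasmonic acid signalling and delays senescence, and both had their largest log2 fold change at 10 h. WRKY70 had 22.1, 15.7 and 29.6 CPM in stp1/4/13 and 27.9, 18.5 and 33 CPM in Col at 2 h, against 29.1, 18.1 and 23.5 CPM in fls2. At 10 h WRKY70 had 186, 160 and 160 CPM in stp1/4/13 and 178, 166 and 147 CPM in Col, against 19.2, 38.9 and 14.6 CPM in fls2. The 3 genotypes overlapped at 2 h, and at 10 h stp1/4/13 and Col overlapped each other far above fls2. At 24 h WRKY70 had 56.1, 79.9 and 95.5 CPM in stp1/4/13 and 121, 97.8 and 110 CPM in Col, against 18.3, 7.27 and 32.2 CPM in fls2. The log2 fold change of Col over fls2 was 0.17 ± 0.37 at 2 h (edgeR adjusted p = 0.77), 2.76 ± 0.25 at 10 h and 2.51 ± 0.39 at 24 h (edgeR adjusted p = 1.1e-07 and 0.00018). WRKY54 had 3.99, 4.14 and 6.84 CPM in stp1/4/13 and 6.74, 9.29 and 7.11 CPM in Col at 24 h, against 0.908, 1.03 and 1.12 CPM in fls2. It rose in Col at all 3 times, by 2.18 ± 0.32, 2.99 ± 0.41 and 2.91 ± 0.30 log2 units.

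WRKY38 and WRKY62 are a second pair of subfamily III, negative regulators of basal defence that interact with the histone deacetylase HDA19. WRKY62 had 3.49, 3.92 and 4.4 CPM in stp1/4/13 and 4.32, 6.67 and 7.42 CPM in Col at 2 h, against 0.323, 0.0579 and 0.203 CPM in fls2. At 10 h WRKY62 had 0.357, 0.699 and 1.31 CPM in stp1/4/13 and 1.65, 1.64 and 0.87 CPM in Col, against 1.11, 1.06 and 0.747 CPM in fls2. It rose by 4.91 ± 0.63 log2 units in Col over fls2 at 2 h (edgeR adjusted p = 7.4e-06), while at 10 h the groups overlapped (0.51 ± 0.65, edgeR adjusted p = 0.54). WRKY38 was not called at 2 h (1.13, edgeR adjusted p = 0.28) and rose by 2.44 at 10 h. At 24 h WRKY38 was not called (1.6, edgeR adjusted p = 0.11) unless the replicate number was a block (1.68, edgeR adjusted p = 0.037). WRKY55 had 3.84, 1.65 and 3.25 CPM in stp1/4/13 and 10.2, 4 and 6.43 CPM in Col at 2 h, against 0, 0 and 0.203 CPM in fls2. At 10 h WRKY55 had 1.25, 1.6 and 0.109 CPM in stp1/4/13 and 2.9, 2.02 and 2.13 CPM in Col, against 0, 0 and 0 CPM in fls2. The Col libraries held 73 counts and fls2 none, so that it was at least 23.6-fold higher in Col when fls2 is set at a floor of 3 counts over the group. At 24 h WRKY55 had 0.596, 4.44 and 0.468 CPM in stp1/4/13 and 4.31, 9.53 and 1.06 CPM in Col, against 0.738, 0.434 and 0 CPM in fls2. Its log2 fold change of Col over fls2 was 6.46 ± 1.23 at 2 h and 3.68 ± 0.98 at 24 h (edgeR adjusted p = 0.014 at 24 h, and 0.087 without Col library 2 and 0.052 without fls2 library 3). Without fls2 library 3 of 2 h, which held its only fls2 counts at that time, the fitted 2 h value was 9.95. That value is set against a group at 0 and is not a bound.

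In subfamily IIc, 7 of 9 members rose at each time. WRKY8 (AT5G46350), a substrate of calcium-dependent protein kinases together with WRKY28 and WRKY48, had 15.7, 9.44 and 12.5 CPM in stp1/4/13 and 27.7, 16.2 and 14.6 CPM in Col at 2 h, against 0.485, 0.174 and 0.405 CPM in fls2. At 10 h WRKY8 had 1.78, 5.09 and 2.61 CPM in stp1/4/13 and 7.06, 6.83 and 6.67 CPM in Col, against 0.403, 0.213 and 0.84 CPM in fls2. At 24 h WRKY8 had 4.35, 4.49 and 2.75 CPM in stp1/4/13 and 4.31, 8.3 and 10.9 CPM in Col, against 1.02, 0.38 and 1.36 CPM in fls2. All Col libraries stood above all fls2 libraries, by 5.74 ± 0.49, 3.76 ± 0.52 and 3.07 ± 0.43 log2 units over the 3 times. WRKY28 rose by 3.69, 2.94 and 1.47 log2 units, and WRKY48 by 2.69, 3.05 and 1.66. The 24 h call of WRKY28 was lost without Col library 2 or fls2 library 2 or 3 (edgeR adjusted p = 0.059 to 0.19).

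WRKY75 (AT5G13080) and WRKY45 (AT3G01970), which act in phosphate supply and, for WRKY75, in senescence, had their largest log2 fold changes at 10 h. WRKY75 had 14.3, 13.1 and 24.8 CPM in stp1/4/13 and 42.2, 23.6 and 47 CPM in Col at 2 h, against 1.4, 0.29 and 2.18 CPM in fls2. At 10 h WRKY75 had 20.7, 25.7 and 22.1 CPM in stp1/4/13 and 34, 34.7 and 26.4 CPM in Col, against 0.704, 0.426 and 1.31 CPM in fls2. At these times the stp1/4/13 libraries lay far above fls2, and at 10 h all lay below Col. WRKY75 rose in Col over fls2 by 4.84 ± 0.67 log2 units at 2 h, 5.24 ± 0.29 at 10 h (edgeR adjusted p = 2.7e-10) and 2.56 ± 0.58 at 24 h. WRKY45 had 177, 177 and 170 CPM in stp1/4/13 and 148, 149 and 143 CPM in Col at 10 h, against 11.2, 21.2 and 16.6 CPM in fls2. WRKY50 (AT5G26170) and WRKY51 (AT5G64810), which repress jasmonic acid signalling when salicylic acid is raised, rose by 1.45 and 3.06 log2 units at 2 h, 1.11 and 3.11 at 10 h, and 1.69 each at 24 h. For WRKY50 the 2 h call was lost without Col library 1 or fls2 library 2 (edgeR adjusted p = 0.099 and 0.12), and the 24 h call without Col library 2 or 3 or fls2 library 2 (0.052 to 0.077). The 24 h rise of WRKY51 came with overlapping groups, 46.3, 18.6 and 12.6 CPM in Col against 17, 4.23 and 2.86 CPM in fls2, and was 0.96 without Col library 1 (edgeR adjusted p = 0.32). It was also lost without Col library 2 or fls2 library 2 or 3, by DESeq2, with a stricter filter and in a fit of the Col and fls2 libraries of 24 h alone (adjusted p = 0.05 to 0.18). WRKY23, which acts in root development with auxin, and WRKY57, which acts in drought, were the 2 of this subfamily not called in Col over fls2 at any time.

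The 6 members of subfamily IIb all rose at 10 h, by 2.00 to 4.18 log2 units. WRKY31 had 2.36, 2.56 and 5.03 CPM in stp1/4/13 and 9.06, 6.11 and 6.04 CPM in Col at 2 h, against 3.39, 0.579 and 2.28 CPM in fls2. At 10 h WRKY31 had 6.51, 10.2 and 9.47 CPM in stp1/4/13 and 26.1, 22.9 and 27.7 CPM in Col, against 1.31, 1.6 and 1.31 CPM in fls2. At 24 h WRKY31 had 2.74, 3.16 and 1.99 CPM in stp1/4/13 and 10.3, 6.15 and 8.43 CPM in Col, against 3.29, 2.6 and 3.78 CPM in fls2. At 24 h the stp1/4/13 libraries thus lay among or below the fls2 libraries, while Col was higher than either. WRKY31 rose in Col over fls2 by 1.75 ± 0.43, 4.18 ± 0.26 and 1.36 ± 0.42 log2 units over the 3 times, the last lost without Col library 1 (edgeR adjusted p = 0.11) or any of the fls2 libraries (0.051 to 0.12). WRKY61 had 13.8, 21.3 and 21.2 CPM in stp1/4/13 and 15.5, 18 and 21.3 CPM in Col at 10 h, against 0.604, 2.66 and 1.03 CPM in fls2. The stp1/4/13 and Col libraries overlapped each other and stood well above fls2. At 24 h WRKY61 had 22, 20.1 and 18.5 CPM in stp1/4/13 and 21.5, 14.5 and 24.7 CPM in Col, against 2.61, 3.31 and 2.09 CPM in fls2. It rose by 1.00 ± 0.30 log2 units at 2 h (edgeR adjusted p = 0.014, and 0.13 without Col library 1 and 0.065 without fls2 library 1), 3.68 ± 0.36 at 10 h and 2.92 ± 0.30 at 24 h. WRKY6, a regulator of phosphate transfer with WRKY42, rose by 3.07, 2.69 and 1.32. WRKY72, which contributes to basal immunity, rose by 1.99, 2.81 and 1.50, and WRKY47 by 2.70, 2.00 and 0.78. The 24 h call of WRKY47 was lost without Col library 1 or 3 or any fls2 library (edgeR adjusted p = 0.05 to 0.15, and 0.50 log2 units without Col library 3) and in a fit of the compared groups alone (0.12). WRKY42 rose at 10 h alone, by 3.06 ± 0.63.

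The 6 members of subfamily IId, which carry a calmodulin-binding motif, all rose at 2 h. WRKY11, WRKY17 and WRKY7, negative regulators of basal resistance, rose by 3.08, 2.01 and 2.04 log2 units at 2 h and by 1.90, 1.57 and 0.61 at 24 h. WRKY15 rose by 2.84, 2.27 and 1.25 log2 units over the 3 times. WRKY39, which acts in heat tolerance, rose by 1.14 and 1.06 at 2 and 10 h, and WRKY21 by 0.61 at 2 h alone.

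**Figure D2:**
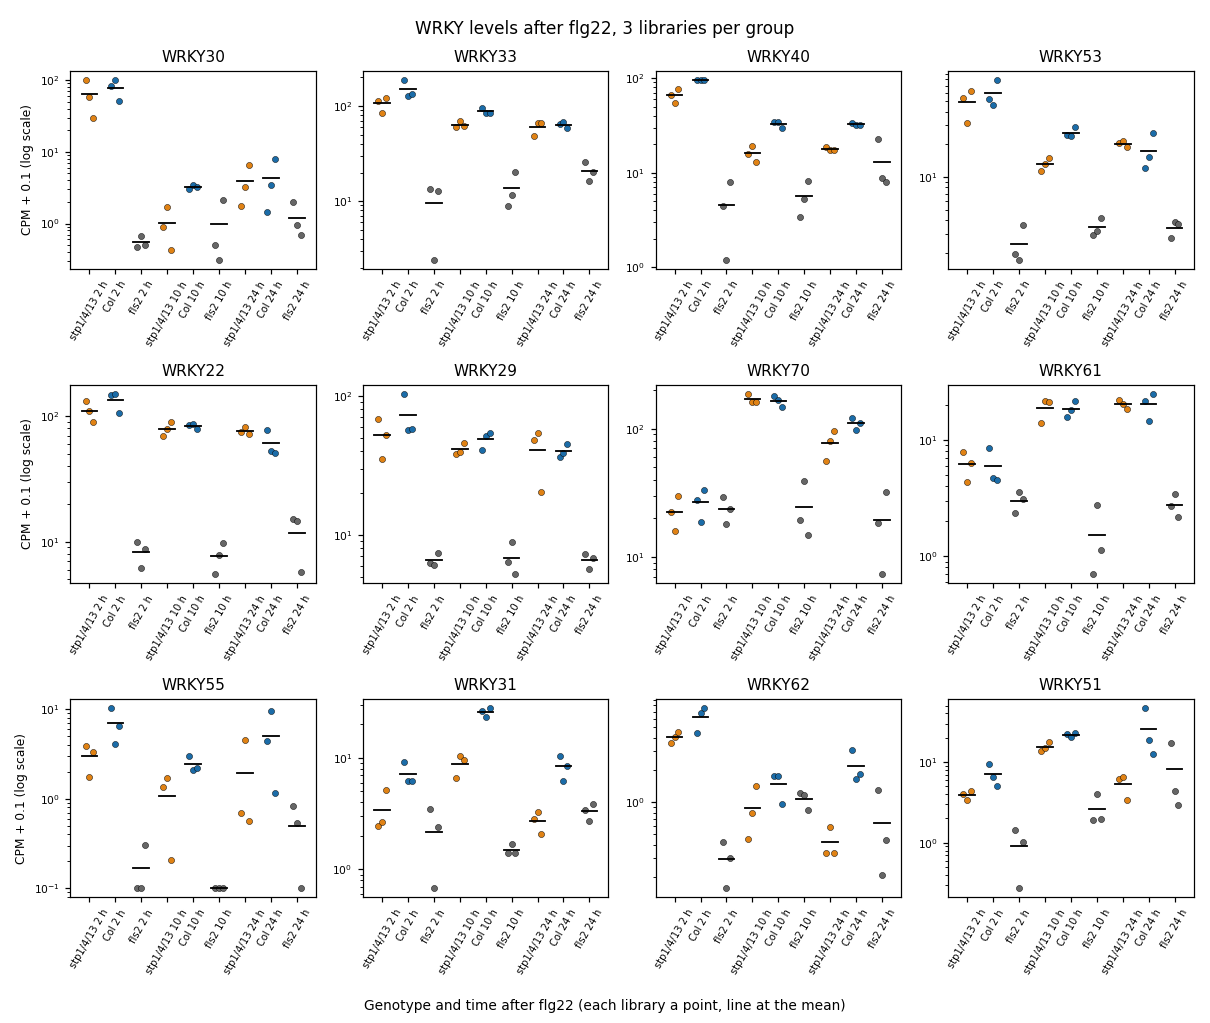
CPM + 0.1 on a log axis of 12 WRKY members in each flg22 library, with stp1/4/13, Col and fls2 from left to right within 2, 10 and 24 h. Points are libraries and lines are group means, 3 libraries each. At 2 h WRKY30, WRKY33, WRKY40, WRKY53, WRKY22 and WRKY29 stand clear of fls2 in stp1/4/13 and Col, while WRKY70 overlaps at 2 h and separates at 10 and 24 h.

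The time of the response differed between members. The 10 h libraries stand in another table and were fitted apart, so the 10 h differences were not tested against those of 2 and 24 h, and the fitted values are given side by side. Of the 44 members tested at all times, the log2 fold change of Col over fls2 was largest at 2 h for 19, at 10 h for 21 and at 24 h for 4. The change between 2 and 24 h was tested as an interaction and was called for 15 of 45 members, 13 with a smaller and 2 with a larger difference at 24 h. Among all genes tested, 6.04% were called smaller and 4.50% larger, and the median interaction was -0.86 for the members and -0.01 for all genes. An interaction can come from a change in Col, in fls2 or in both. By the library values above, WRKY33 was lower in Col and higher in fls2 at 24 h than at 2 h. The most negative interaction was that of WRKY30, -5.46 ± 0.97 log2 units. Next were WRKY40 at -3.09 ± 0.60, WRKY62 at -2.98 ± 0.85, WRKY8 at -2.67 ± 0.66 and WRKY33 at -2.37 ± 0.54. The calls of WRKY62 and WRKY8 failed without single libraries. For WRKY62 the edgeR adjusted p was 0.031, and 0.23 without fls2 library 1 of 24 h. For WRKY8 it was 0.014, and 0.051 without fls2 library 2 of 2 h. The positive interactions called were those of WRKY70, 2.34 ± 0.53 (edgeR adjusted p = 0.0081), and WRKY61, 1.92 ± 0.42 (edgeR adjusted p = 0.0063). The markers also moved between these times. In their interaction all 5 root markers were called lower and 3 of 5 leaf markers higher, and their part in the WRKY interactions was not tested.

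Whether the sugar transporters affect the response is the question behind stp1/4/13. At 2 h no member differed between stp1/4/13 and Col by edgeR, 4 of 45 had an unadjusted p below 0.05, and DESeq2 also called none. Among all genes tested, 0.172% were called higher and 0.0466% lower at 2 h, so few genes of any kind were. The fold changes of 37 of 45 members were below 0, and their median was -0.28, against -0.0083 for all genes. At 10 h 6 of 44 members fell in stp1/4/13 and none rose, where 4.84% of all genes tested were called lower and 7.67% higher. At 24 h 4 of 45 fell and none rose, where 4.55% were called lower and 4.46% higher. The median over members was -0.23 at both times, against -0.0036 and 0.02 over all genes. No member was called in the interaction of 2 and 24 h (3 of 45 with an unadjusted p below 0.05; 0.0186% of all genes called higher and 0.00932% lower), so a difference in the effect of the genotype between the times was not detected.

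WRKY31, the largest of the 6 at 10 h, fell by 1.55 ± 0.21 log2 units (edgeR adjusted p = 0.00019), from the per-library values above in which every stp1/4/13 library lay below every Col library. WRKY40 fell by 1.04 ± 0.24 (edgeR adjusted p = 0.0085) and WRKY53 by 0.98 ± 0.20 (edgeR adjusted p = 0.0038), and the groups did not overlap for either. WRKY46 had 18.6, 16.6 and 10.2 CPM in stp1/4/13 at 10 h, against 37.9, 33.6 and 27 CPM in Col. It fell by 1.11 ± 0.31 (edgeR adjusted p = 0.027), and the call was lost without Col library 1 or 2 or stp1/4/13 library 2 or 3 (edgeR adjusted p = 0.06 to 0.12). WRKY50 fell by 0.92 ± 0.25 and WRKY48 by 0.70 ± 0.21, and these calls were also lost when single libraries were left out (edgeR adjusted p up to 0.1 and 0.17). WRKY31, WRKY40 and WRKY53 kept theirs whichever library was left out. A fit of the stp1/4/13 and Col libraries alone called 11 members lower, among them WRKY33 (edgeR adjusted p = 0.011, against 0.16 with fls2 in the fit). WRKY18, at -0.46, stood at the threshold and was called lower with RLE scaling, with DESeq2, with either other filter and in that fit (adjusted p = 0.012 to 0.042).

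The MAPK reporters, WRKY70 and WRKY33 were not called at 10 h in the fit with fls2, and no test compared them with the called members. At 10 h stp1/4/13 over Col was -0.08 ± 0.17 log2 units for WRKY22 (edgeR adjusted p = 0.82), -0.25 ± 0.18 for WRKY29 (edgeR adjusted p = 0.43) and 0.04 ± 0.23 for WRKY70 (edgeR adjusted p = 0.94, and -0.0092 with RLE scaling). WRKY33 was at -0.47 ± 0.21. None of these passed the test in that fit, which does not show that the genotypes are alike. Leaf markers moved with the genotype at 10 and 24 h, their summed level being 14400 to 17900 CPM in stp1/4/13 at 10 h against 6540 to 9350 CPM in Col, and 12700 to 15300 against 5900 to 10400 CPM at 24 h, with 3 of 5 called higher at each. Their part in the WRKY differences was not tested.

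At 24 h WRKY38, WRKY62, WRKY51 and WRKY31 fell in stp1/4/13. WRKY38 had 0.357, 0.444 and 1.11 CPM in stp1/4/13, against 6.25, 2.15 and 3.58 CPM in Col. WRKY62 had 0.238, 0.493 and 0.234 CPM in stp1/4/13, against 2.97, 1.54 and 1.72 CPM in Col. WRKY51 had 6.02, 6.41 and 3.33 CPM in stp1/4/13, against 46.3, 18.6 and 12.6 CPM in Col. In all 3 the groups were separate, and the differences were -2.64 ± 0.72, -2.63 ± 0.60 and -2.29 ± 0.59 log2 units (edgeR adjusted p = 0.032, 0.014 and 0.025). WRKY31 was at -1.65 ± 0.42 (edgeR adjusted p = 0.025). The calls rest on few libraries: without Col library 1 no member was called (edgeR adjusted p = 0.066 to 0.16 for the 4), without stp1/4/13 library 2 or 3 the count was 1 and 2, without Col library 3 it was 8, and a fit of these groups alone called 1.

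Many members were also higher in the mutant than in fls2. In stp1/4/13 over fls2, 31 of 45 members rose at 2 h, 33 of 44 at 10 h and 19 of 45 at 24 h, and none fell, with 15.8%, 26.9% and 11.5% of all genes tested called higher and 9.82%, 25.3% and 8.39% lower. The comparison shares its fls2 libraries with that of Col, and the counts are given side by side without a test. Markers moved here too, all 5 root markers being called lower at 10 and 24 h and none at 2 h. Of the 5 leaf markers, 3 were called lower at 2 h, 1 higher at 10 h and 2 higher at 24 h. What part this had in the WRKY differences was not tested. At 2 h the largest log2 fold changes of stp1/4/13 over fls2 were 7.10 ± 0.73 for WRKY30, 5.22 ± 1.26 for WRKY55, 5.10 ± 0.49 for WRKY8 and 4.40 ± 0.36 for WRKY53. Without fls2 library 3 the value of WRKY55 was 8.71, fitted against a group at 0 and not a bound. At 10 h WRKY55 was at least 9.89-fold higher (31 counts against none), WRKY75 rose by 4.77 ± 0.29, WRKY61 by 3.72 ± 0.36 and WRKY45 by 3.42 ± 0.18. At 24 h WRKY61 rose by 2.92 ± 0.30, WRKY22 by 2.69 ± 0.30, WRKY29 by 2.65 ± 0.33 and WRKY53 by 2.61 ± 0.34. WRKY31, WRKY40 and WRKY62 were not called against fls2 at 24 h, with -0.29 ± 0.43, 0.45 ± 0.42 and -0.70 ± 0.65.

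The sugar experiment has a conflict in its labels and a library that stands apart. The 6 libraries titled 2DG_1mM or Suc_25mM each carry the other name in their treatment label, and titles set the groups here. With the treatment labels followed, the calls given below for 2DG_1mM over Suc_0mM belong to Suc_25mM and those for Suc_25mM to 2DG_1mM. Suc_0mM library 1 was the highest of its group for 28 of the 43 members with counts there and at least 2 times both others for 18. Its values were 57.8 CPM for WRKY33 (7.03 and 6.9 CPM in the others), 26.8 for WRKY40 (2.02 and 1.01), 200 for WRKY22 (26.5 and 84.6) and 25.8 for WRKY53 (3.34 and 1.94). Leaf and root markers moved with the treatment. The leaf sum was 5930 to 11900 CPM in 2DG_1mM and 9880 to 15300 CPM in Suc_25mM, against 25600 to 43100 CPM in Suc_0mM, and the root sum was 1.5 to 4.06 CPM in 2DG_1mM and 25 to 46.6 CPM in Suc_25mM, against 22 to 37.8 CPM in Suc_0mM. In 2DG_1mM over Suc_0mM 5 of 5 leaf and 4 of 5 root markers were called lower, and the root marker EXPA7 was at 0 in every 2DG_1mM library. Their part in the WRKY differences was not tested.

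With 2DG more members rose than fell. In 2DG_1mM over Suc_0mM, 25 of 44 members rose and 5 fell, where 21.3% of all genes tested were called higher and 27.9% lower. The share of members that fell thus lay below that of all genes. The median was 1.32 log2 units for the members and -0.21 for all genes. Subfamilies IIc and III carried the largest rises, with 8 of 9 and 6 of 8 members and medians of 4.34 and 4.78 log2 units. In 2DG_1mM over Suc_25mM, 27 rose and 3 fell, where 21.4% of all genes were called higher and 28% lower.

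WRKY38 had 7.53, 11.9 and 18.5 CPM in 2DG_1mM and 0.257, 0.379 and 1.35 CPM in Suc_25mM, against 0, 0 and 0 CPM in Suc_0mM. With 345 counts against none, it was at least 152-fold higher in 2DG_1mM than in Suc_0mM at a floor of 3 counts over the group. Its partner WRKY62 had 48.4, 70.7 and 64.9 CPM in 2DG_1mM and 0.171, 0.284 and 0 CPM in Suc_25mM, against 0.31, 0 and 0.0842 CPM in Suc_0mM. Both genes were near 0 without 2DG, and every 2DG_1mM library was higher than every other. WRKY62 rose by 8.68 ± 0.64 log2 units over Suc_0mM and 8.48 ± 0.64 over Suc_25mM (edgeR adjusted p = 2.7e-06 and 3.4e-06). WRKY50 had 457, 517 and 522 CPM in 2DG_1mM and 11.3, 6.92 and 7.45 CPM in Suc_25mM, against 1.63, 0.527 and 1.09 CPM in Suc_0mM. It rose by 8.82 ± 0.41 log2 units over Suc_0mM and 5.86 ± 0.35 over Suc_25mM, and the 3 groups were fully separate. WRKY51 had 40.4, 46.5 and 58.5 CPM in 2DG_1mM and 3.69, 3.51 and 3.5 CPM in Suc_25mM, against 1.16, 0.0879 and 0.505 CPM in Suc_0mM, a rise of 6.31 ± 0.56 with 2DG over Suc_0mM.

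WRKY46 reached the highest level it had in any group. It had 745, 610 and 720 CPM in 2DG_1mM and 23.2, 17.2 and 13.4 CPM in Suc_25mM, against 16.5, 2.64 and 6.23 CPM in Suc_0mM, while no flg22 library, scaled in a separate fit, exceeded 56.2 CPM. WRKY8 had 34.6, 39.6 and 43.2 CPM in 2DG_1mM and 1.8, 0.284 and 0.79 CPM in Suc_25mM, against 0.543, 0 and 0.0842 CPM in Suc_0mM. These 2 genes rose in 2DG_1mM over Suc_0mM by 6.35 ± 0.59 and 7.41 ± 0.80 log2 units, and their 2DG_1mM libraries were apart from all others. WRKY75 had 78.7, 72 and 58.3 CPM in 2DG_1mM and 1.11, 2.65 and 0.903 CPM in Suc_25mM, against 4.73, 1.58 and 3.96 CPM in Suc_0mM. It rose by 4.34 ± 0.46 over Suc_0mM and 5.46 ± 0.50 over Suc_25mM. WRKY70 had 234, 142 and 260 CPM in 2DG_1mM and 33.4, 11.5 and 14.4 CPM in Suc_25mM, against 12.6, 2.29 and 12.5 CPM in Suc_0mM, and rose by 4.53 ± 0.62 over Suc_0mM. Further rises over Suc_0mM were 5.02 log2 units for WRKY55, 4.49 for WRKY28, 4.22 for WRKY54, 3.88 for WRKY61, 2.43 for WRKY48 (3.87 without Suc_0mM library 1), 2.29 for WRKY45 and 2.14 for WRKY18.

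**Figure D3:**
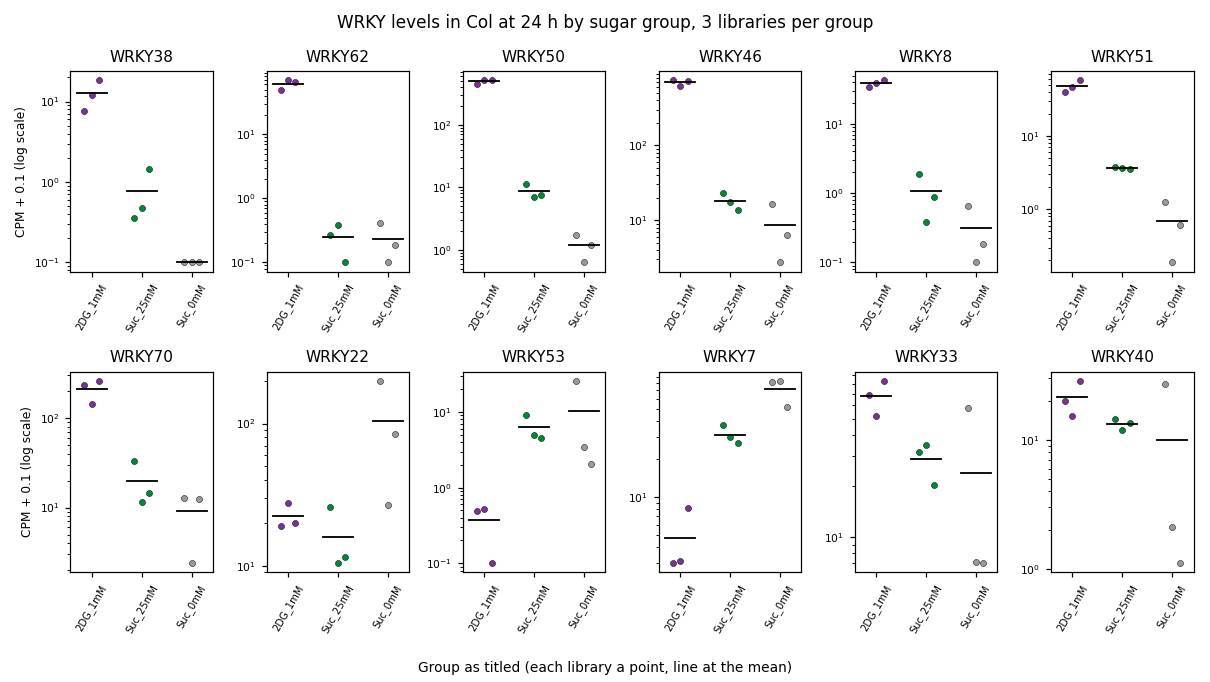
CPM + 0.1 on a log axis of 12 WRKY members in the libraries titled 2DG_1mM, Suc_25mM and Suc_0mM, from left to right. Points are libraries and lines are group means, 3 libraries each. WRKY38, WRKY62, WRKY50, WRKY46, WRKY8, WRKY51 and WRKY70 are highest in all 2DG_1mM libraries, WRKY53 and WRKY7 are lowest there, and Suc_0mM library 1 is the high point of its group for WRKY22, WRKY33, WRKY40 and WRKY53.

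The 5 members that fell with 2DG over Suc_0mM were WRKY53, WRKY7, WRKY22, WRKY21 and WRKY47. WRKY53 had 0.396, 0.428 and 0 CPM in 2DG_1mM and 9.09, 4.93 and 4.4 CPM in Suc_25mM, against 25.8, 3.34 and 1.94 CPM in Suc_0mM, a fall of 5.14 ± 1.14 log2 units over Suc_0mM (edgeR adjusted p = 0.003), or of 3.19 without Suc_0mM library 1 (edgeR adjusted p = 0.017). WRKY7 had 2.87, 3 and 8.09 CPM in 2DG_1mM and 36.8, 29.7 and 26.9 CPM in Suc_25mM, against 81.3, 83.4 and 51.4 CPM in Suc_0mM, a fall of 3.96 ± 0.42. For both genes the 2DG_1mM libraries lay below all others. WRKY22 had 19, 27.6 and 19.9 CPM in 2DG_1mM and 25.6, 10.3 and 11.4 CPM in Suc_25mM, against 200, 26.5 and 84.6 CPM in Suc_0mM. It was lower over Suc_0mM in both 2DG_1mM (-2.22 ± 0.60, edgeR adjusted p = 0.0093, and -1.33, edgeR adjusted p = 0.048, without Suc_0mM library 1) and Suc_25mM (-2.71 ± 0.61, edgeR adjusted p = 0.014, and 0.059 and 0.065 without Suc_25mM library 2 or 3), although 1 of the 3 2DG_1mM libraries exceeded 1 Suc_0mM library. WRKY21 fell by 1.76 ± 0.29 and WRKY47 by 1.47 ± 0.35.

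The other MAPK-linked and IIa members gave mixed values. WRKY33 had 68.4, 51.5 and 83.5 CPM in 2DG_1mM and 31.7, 34.9 and 20.1 CPM in Suc_25mM, against 57.8, 7.03 and 6.9 CPM in Suc_0mM. It was not called over Suc_0mM (1.50 ± 0.68, edgeR adjusted p = 0.088), but was without Suc_0mM library 1 (3.27, edgeR adjusted p = 4.3e-05) and by DESeq2 (adjusted p = 0.044). WRKY40 had 19.8, 15.2 and 28.6 CPM in 2DG_1mM and 14.5, 11.9 and 13.4 CPM in Suc_25mM, against 26.8, 2.02 and 1.01 CPM in Suc_0mM. It was not called (1.09 ± 0.86, edgeR adjusted p = 0.32) and reached 3.79 (edgeR adjusted p = 0.00011) without Suc_0mM library 1. WRKY29 had 12, 19.7 and 11 CPM in 2DG_1mM and 3.94, 2.28 and 5.42 CPM in Suc_25mM, against 7.53, 3.95 and 2.19 CPM in Suc_0mM, a rise of 1.64 ± 0.52 over Suc_0mM (edgeR adjusted p = 0.022, and 0.064 to 0.074 without Suc_0mM library 2 or 3 or 2DG_1mM library 2). WRKY30 was low and scattered, with 0, 0.107 and 3.28 CPM in 2DG_1mM and 5.23, 2.28 and 0.79 CPM in Suc_25mM, against 8.38, 0.176 and 0 CPM in Suc_0mM, and was not called.

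Few members differed between Suc_25mM and Suc_0mM. In Suc_25mM over Suc_0mM 3 of 44 rose and 2 fell, where 6.41% of all genes tested were called higher and 6.08% lower, and the medians were -0.05 for the members and 0.04 for all genes. WRKY50 rose by 2.96 ± 0.35 and WRKY51 by 2.55 ± 0.53 (edgeR adjusted p = 0.00049 and 0.009), and both held whichever library was left out. WRKY38 was at least 7.98-fold higher (19 counts against none), and was not called without Suc_0mM library 3 (edgeR adjusted p = 0.054) or Suc_25mM library 3 (0.061). WRKY47 fell by 1.32 ± 0.35 (edgeR adjusted p = 0.03), a call lost without Suc_0mM library 1 or 2 or any Suc_25mM library (edgeR adjusted p = 0.075 to 0.11). Without Suc_0mM library 1 there were 9 calls, 8 higher and 1 lower, and WRKY33 (2.05, edgeR adjusted p = 0.0038) and WRKY40 (3.12, edgeR adjusted p = 0.0025) were among them. Without Suc_25mM library 2 or 3 there were 3 and 2. DESeq2 called 9, 4 higher and 5 lower, and the replicate number as a block added WRKY17 (-1.08, edgeR adjusted p = 0.05).

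The flg22 and 2DG comparisons share no library, so their calls can be set side by side. Of the 34 members that rose in Col over fls2 at 2 h, 33 were tested in the sugar experiment. With 2DG over Suc_0mM 20 of them rose, which is 58.8% of the 34 and 80% of the 25 that rose with 2DG, and 5 fell, which is 14.7% of the 34 and all of the members that fell. WRKY53, WRKY22, WRKY7, WRKY47 and WRKY21 were thus higher at 2 h after flg22 and lower with 2DG. The 5 that rose with 2DG but were not called at 2 h were WRKY18, WRKY23, WRKY38, WRKY69 and WRKY70. The 2DG call of WRKY23 was lost without 2DG_1mM library 1 (edgeR adjusted p = 0.051). Among the 20, the 2DG calls of WRKY25, WRKY29, WRKY31 and WRKY65 were lost without some single libraries (edgeR adjusted p up to 0.11, 0.074, 0.082 and 0.1). At 10 h 22 of the 35 that rose (62.9%) also rose with 2DG, and at 24 h 19 of 31 (61.3%). Over the whole family 25 of 44 members rose with 2DG and 5 fell, and 34 of 45 rose at 2 h. The shares that rose thus lie near the family's own, and 5 members are few for a share that fell. Nothing is read from either. No test of the overlap was made.

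**Figure D4:**
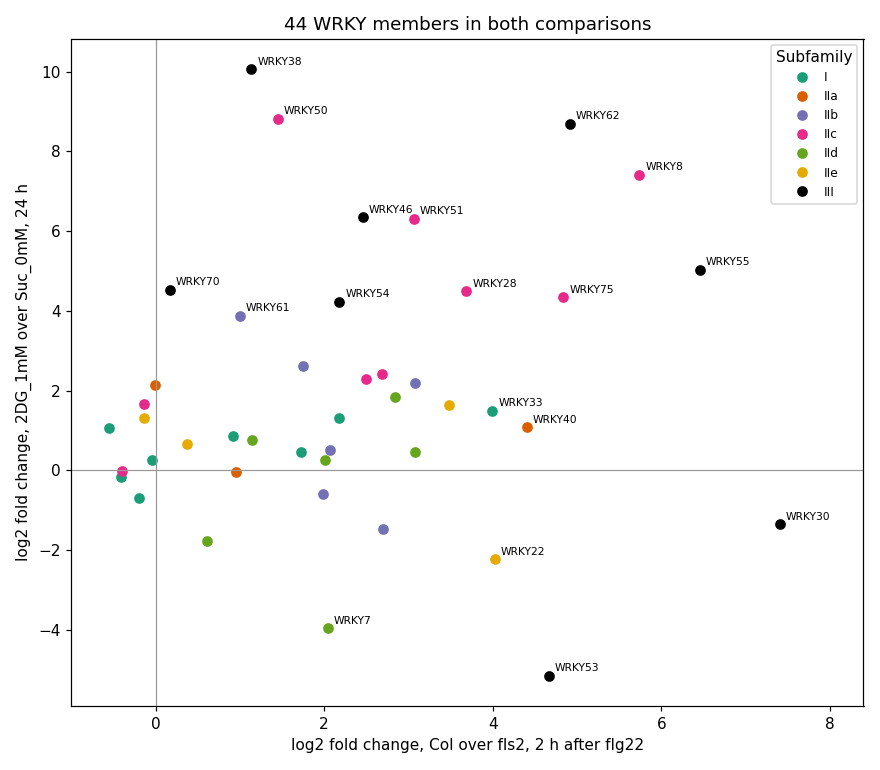
Log2 fold change of 44 WRKY members in 2DG_1mM over Suc_0mM (vertical axis) against Col over fls2 at 2 h after flg22 (horizontal axis), coloured by subfamily. WRKY30 lies far right at -1.35 on the vertical axis, where it was not called, WRKY38 (a fitted value against a group at 0) and WRKY50 lie at the top, and WRKY53, WRKY7 and WRKY22 lie at the lower right, with 4.67, 2.04 and 4.03 log2 units for flg22 and -5.14, -3.96 and -2.22 for 2DG. Without Suc_0mM library 1 the 2DG values of WRKY53 and WRKY22 are -3.19 and -1.33.

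W boxes were counted against these calls. Of the 34 members that rose at 2 h, 16 (47.1%) had at least 1 W box in the 250 bases, as did 1 of the 11 not called (9.09%), where 28.4% of all protein-coding genes had one. Of the 25 that rose with 2DG 8 (32%) had one, as did 7 of the 14 not called (50%). Of the 5 that fell 1 (20%) had one, which was WRKY53. WRKY22, with one of the larger flg22 responses, had none in this window, nor did WRKY38.

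The other WRKY loci of the genome and genes tied to the family were counted in the same way. Of 27 further WRKY loci outside the list, 21 could be tested at 2 h and 9 rose in Col over fls2, 10 of 16 rose at 10 h, and 8 of 21 rose and 1 fell at 24 h. In 2DG_1mM over Suc_0mM 5 of 15 rose and 2 fell. The shares of all genes called higher in these 4 comparisons were 18.7%, 24.9%, 11% and 21.3%, and lower 16.1%, 26.4%, 7.59% and 27.9%. Among the further loci WRKY59 rose by 9.66 ± 0.52 log2 units and ABO3, whose mutant is oversensitive to abscisic acid, by 8.95 ± 0.58, to 429 ± 61.1 CPM in 2DG_1mM against 0.854 ± 0.459 CPM in Suc_0mM (SD, n = 3 each). WRKY49 fell by 7.30 ± 0.67 log2 units. VQ proteins bind WRKY proteins, and of 19 VQ genes tested at 2 h 15 rose in Col over fls2, while 11 of 18 rose and 1 fell at 10 h, and 11 of 19 rose at 24 h. SIB1 and MKS1, partners of WRKY33, rose by 2.25 ± 0.45 and 2.91 ± 0.35 log2 units at 2 h, and by 4.12 ± 0.40 and 1.09 ± 0.39 in 2DG_1mM over Suc_0mM, where 10 of 19 VQ genes rose and 2 fell. Of 8 genes known as WRKY33 targets, all rose in Col over fls2 at each of the 3 times, with medians of 4.62, 5.49 and 3.50 log2 units. They include PAD3, CYP71A12 and CYP71A13, of camalexin synthesis, and ACS2 and ACS6, of ethylene synthesis. In stp1/4/13 over Col at 10 h, 6 of the 8 fell, with a median of -0.84 log2 units, where 4.84% of all genes were called lower. At 2 h none of the 8 was called (4 with an unadjusted p below 0.05, and a median of -0.86), and at 24 h PAD3 alone fell, by 2.00 ± 0.28. At 10 h PAD3 fell by 1.33 ± 0.36, CYP71A13 by 1.77 ± 0.42 and ACS6 by 1.08 ± 0.23 (edgeR adjusted p = 0.021, 0.01 and 0.0054), beside WRKY33 itself at -0.47 ± 0.21. Reads of CYP71A12 and CYP71A13, which are near-identical, could be split by the counting.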

How the data were processed

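RNA of whole seedlings was profiled in 36 strand-specific 3′ digital gene expression libraries made from 500 ng of RNA (BrAD-seq), per the labels' protocols. The authors deposited raw counts per locus, without normalization, in 2 tables of 32833 loci, 1 of which holds the 10 h libraries. The submitters' processing notes name fastp 0.19.7, STAR 2.6.1b, featureCounts 1.6.0 and the TAIR10 build, and the strand setting is not given in the sources used here. Groups follow the titles.

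From the counts, 3 fits were made, with 18 libraries of 2 and 24 h, 9 of 10 h and 9 of the sugar experiment, and 14 comparisons. Each used edgeR 4.0.16 in R 4.3.3 (filterByExpr, TMM scaling, quasi-likelihood test, two-sided, Benjamini-Hochberg adjustment over all genes tested, threshold 0.05), checked on simulated counts. CPM are counts per 1000000 of the TMM-scaled total in a fit, and levels are not comparable between genes because tags come from transcript ends. Standard errors are the absolute log2 fold change over the square root of F. Alternatives were RLE scaling, DESeq2 1.42.0 on the same genes, no filter, at least 50 counts in 3 libraries, the replicate number as a block, only the compared groups, each library left out and the treatment labels. Where a group had 0 counts, fitted values are not bounds, and folds use a floor of 3 counts over the group, which covers counting error only; placing those members at their bound leaves the printed medians as they are. Names, gene starts and promoter sequence come from RefSeq's TAIR10.1, in which 32548 loci were matched.

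The members and lists were chosen with earlier results of these data known. Values in every library are given for WRKY22, WRKY29, WRKY33, WRKY40 and WRKY70 and for up to 4 members called in each comparison with the largest absolute log2 fold change and a mean of at least 1 CPM, and other members by their fold changes. Library values were added for a few further members (WRKY7, WRKY41 and the like) after their values were seen. The replicate numbers stand for 3 trials in the study's design text, which does not tie a number to a trial. Deviations of same-numbered libraries from their group means correlated above 0.1 in all 3 pairs for Col and fls2 at 24 h (0.325 to 0.634), stp1/4/13 and Col at 2 h (0.248 to 0.328), stp1/4/13 and fls2 at 24 h (0.149 to 0.345) and Suc_25mM and Suc_0mM (0.147 to 0.307), and not in the other comparisons.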

Additional observations from a re-analysis of the deposited data

Results flagged for a closer look

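The effect of the genotype, Col over fls2, differed between 24 h and 2 h after flg22 for 15 WRKY members by a test of the difference itself (interaction, edgeR adjusted p below 0.05, 3 libraries per group). In log2 units, 24 h minus 2 h, it was -5.46 for WRKY30, -3.09 for WRKY40, -2.98 for WRKY62, -2.67 for WRKY8, -2.37 for WRKY33, -2.26 for WRKY53 and -2.22 for WRKY28. It was -1.92 for WRKY47, -1.75 for WRKY6, -1.65 for WRKY22, -1.59 for WRKY15, -1.43 for WRKY7 and -1.18 for WRKY11. For WRKY70 and WRKY61 it was 2.34 and 1.92, a larger difference at 24 h. The calls of WRKY8, WRKY11, WRKY28 and WRKY62 were lost when some single libraries were left out.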

How the results depend on the processing

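The counts of members called in Col over fls2 at 2 and 10 h, in stp1/4/13 over fls2, in 2DG_1mM over Suc_0mM and over Suc_25mM and in the interactions stayed within 1.5 times under all alternatives other than the treatment labels. For Col over fls2 at 24 h (31) the count was 18 with only the compared groups. For stp1/4/13 over Col it was 11 at 10 h (6) with only the compared groups, and at 24 h (4) it was 7 by DESeq2, 8 with the replicate block and 1 with only the compared groups. For Suc_25mM over Suc_0mM (5) it was 9 by DESeq2. With the treatment labels it was 5 for 2DG_1mM over Suc_0mM (30 by title), 30 for Suc_25mM over Suc_0mM, and 3 higher and 27 lower for 2DG_1mM over Suc_25mM. Leaving out 1 library gave 30 to 32, 34 to 35 and 20 to 30 for Col over fls2 at 2, 10 and 24 h; 0, 4 to 5 and 0 to 8 for stp1/4/13 over Col; 28 to 31, 31 to 33 and 18 to 23 for stp1/4/13 over fls2; 26 to 33, 2 to 9 and 25 to 29 for 2DG_1mM over Suc_0mM, Suc_25mM over Suc_0mM and 2DG_1mM over Suc_25mM; and 11 to 17 for the interaction. The replicate block gave 34, 34 and 33 for Col over fls2, 0, 6 and 8 for stp1/4/13 over Col, 31, 33 and 21 for stp1/4/13 over fls2, 31, 6 and 30 in the sugar comparisons, and 18 for the interaction. It kept all calls except WRKY30 in Col over fls2 at 10 h (adjusted p = 0.057), and WRKY33 gained one in 2DG_1mM over Suc_0mM (2.06, adjusted p = 0.026), where the numbers do not pair the libraries. Of the values for called members and the 5 always given, 3548 kept their direction and side of the threshold, 195 lost a call, 8 gained one and 20 changed sign, none of which was called. The sign changes lie within leave-one-out ranges in log2 units. In stp1/4/13 over fls2 at 2 h WRKY70 ran from -0.30 to 0.13. In Col over fls2 at 2 h it ran from -0.025 to 0.37. In stp1/4/13 over Col at 10 h WRKY70 ran from -0.033 to 0.11 (-0.0092 with RLE scaling and -0.0093 with DESeq2) and WRKY22 from -0.17 to 0.0094, and at 24 h WRKY29 ran from -0.24 to 0.34 and WRKY33 from -0.16 to 0.049. In Suc_25mM over Suc_0mM WRKY29 ran from -0.57 to 0.33, WRKY33 from -0.16 to 2.05 and WRKY40 from -0.12 to 3.12. The cause was not tested. RLE scaling moved the median of all genes by at most 0.052 log2 units. Depth limits members with few counts, WRKY41 (not tested at 10 h or in the sugar experiment), WRKY42, WRKY55 and WRKY62.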

Other observations

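Several WRKY loci outside the list, and partners of the family, had large values with 2DG. In 2DG_1mM over Suc_0mM WRKY66 rose by 9.37 ± 0.83 log2 units and WRKY43 by 7.84, while WRKY27 fell by 2.82. Values of loci outside the list are fitted ones to which no floor was applied. They are not bounds where a group was at 0. SIB2, a VQ partner of WRKY33 like SIB1, rose by 2.69 ± 0.34. Of the WRKY33 targets, 4 of 7 tested rose there, where 21.3% of all genes tested were called higher and 27.9% lower. These were PAD3 (4.89 ± 0.86), CYP71A12 (5.74 ± 0.48), CYP71A13 (8.12 ± 1.44) and ACS2 (4.46 ± 0.44). WRKY33 itself was at 1.50 ± 0.68 and was not called. The VQ gene AT1G78410 was the VQ gene called in stp1/4/13 over Col, lower by 1.25 ± 0.22 log2 units at 2 h and by 1.00 ± 0.23 at 24 h (edgeR adjusted p = 0.028 and 0.016).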
